A study of Homo sapiens with 8 samples.

Results

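Granins and prohormone processing enzymes form 1 secretory system, and 10 of its genes were followed here in Ewing sarcoma cells: the granins CHGA, CHGB, VGF, SCG2 and SCG3, the prohormone convertases PCSK1 and PCSK2, the convertase partners SCG5 and PCSK1N, and the carboxypeptidase CPE. The members were chosen by symbol, as 10 of the 34788 genes to which the transcripts could be summed, and were compared between doxycycline and control cultures paired by origin. A673 is an established Ewing sarcoma cell line that carries the EWSR1-FLI1 fusion. In A673/TR/shFEZF1 cells, lentiviral constructs supply the tetracycline repressor and an H1-driven shRNA against FEZF1, a zinc finger transcriptional repressor of neural development, and doxycycline switches the shRNA on. RNA was sequenced from 4 control cultures without doxycycline and 4 cultures given doxycycline (1 µg/mL, 72 h). The polyclonal population and clones 3, 5 and 6 each gave 1 control and 1 doxycycline culture. All cultures carry both constructs, each clone was picked by the authors for strong loss of FEZF1 protein on doxycycline, and every A673/TR/shFEZF1 culture descends from 1 A673/TR clone. Doxycycline without the shRNA was not analysed here, so effects of the drug and of the shRNA cannot be told apart. In RNA from whole cultures, fewer expressing cells and less RNA per cell cannot be told apart either.

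Granins are acidic proteins that condense in the trans-Golgi network and pack peptide hormones into dense-core vesicles, the regulated secretory granules of neurons and endocrine cells. Inside the vesicle, prohormone convertases cut precursors after pairs of basic residues and carboxypeptidase E trims the basic residues left at the ends. SCG5 (7B2) is the chaperone of the convertase PC2 (gene PCSK2), and PCSK1N (proSAAS) inhibits PC1/3 (gene PCSK1). Several granins are used as markers of neuroendocrine differentiation, and VGF, a neurotrophin-induced member, is itself a precursor of bioactive peptides.

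Between 28170989 and 42422421 reads were assigned to transcripts in the control libraries (median 33248931.5) and between 26719886 and 38104082 in the doxycycline libraries (median 34278974.5). At this depth 3 reads, taken as the floor of detection, were worth 0.0707 to 0.112 CPM (counts scaled to a common library size), a limit that covers counting error only. FEZF1 (GRCh38 chromosome 7, 122301303 to 122310723) was at 96.4, 70.5, 107 and 74.4 CPM in the control cultures of the polyclonal population and clones 3, 5 and 6, and at 60.6, 43.0, 60.8 and 36.4 CPM in their doxycycline cultures. It fell by 0.81 on the log2 scale (standard error 0.0726, adjusted p = 0.00595, and 0.29 without the pairing), and the 2 groups did not overlap. Adjusted p-values are from the quasi-likelihood test of edgeR with origin as a block, corrected over all genes by the Benjamini-Hochberg (BH) method, unless another test is named. FEZF1 overlaps FEZF1-AS1 on the other strand, and whether the authors' quantification used strand is not given in the sources used here. Of 8 Ewing sarcoma markers, 7 were at 1 TPM (a level per length) or more in the controls. The eighth, FLI1, had 0.0408% of the reads that the authors' deposited mean implies matched to its symbol and is not used here. Of 7 neuroendocrine markers, SYP, ENO2 and NCAM1 were at 1 TPM or more, while INSM1 was at 0 reads in all 8 libraries and NEUROD1 and PTPRN were at or under 0.1 TPM on average. The summed level of the list was 59.6 to 79.7 TPM in the controls and 57.3 to 73.0 TPM with doxycycline. SYP, a synaptic vesicle protein, was at 8.56 ± 1.21 TPM in the controls and 4.56 ± 1.03 TPM with doxycycline (SD, n = 4 each). NCAM1 was at 5.39 ± 2.87 and 4.75 ± 2.39 TPM in turn. ENO2, the largest part of the summed level, was at 53.1 ± 11.65 and 55.8 ± 8.77 TPM. The relation of SYP to the members was not tested.

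The sequences before the transcription starts show the motif that several members share. The palindromic cAMP response element TGACGTCA, to which CREB proteins bind, lay in 3 of the 8 member promoters that could be matched (VGF, CHGA and PCSK1) and in 1.98% of 27305 promoters of the same 300 bases. Below are the 250 bases before the start of these 3 genes (RefSeq, GRCh38.p14, 5′ to 3′ on the strand of the gene), in which capitals mark the cAMP response element, the VGF match to a TATA box (TATAAA, here as its reverse complement) and the PCSK1 match to a pair of GGAA repeats (GGAAGGAA, here as its reverse complement).
VGF (chr7:101165570-101165819, minus strand): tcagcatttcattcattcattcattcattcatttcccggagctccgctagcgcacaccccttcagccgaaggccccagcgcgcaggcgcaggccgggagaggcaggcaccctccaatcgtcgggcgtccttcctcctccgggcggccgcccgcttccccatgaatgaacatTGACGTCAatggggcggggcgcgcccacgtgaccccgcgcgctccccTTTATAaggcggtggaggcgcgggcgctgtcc
CHGA (chr14:92922900-92923149, plus strand): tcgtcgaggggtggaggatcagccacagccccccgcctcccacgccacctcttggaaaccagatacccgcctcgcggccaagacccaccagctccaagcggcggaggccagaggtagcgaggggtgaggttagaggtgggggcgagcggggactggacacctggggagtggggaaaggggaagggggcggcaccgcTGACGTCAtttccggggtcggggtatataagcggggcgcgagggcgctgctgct
PCSK1 (chr5:96433249-96433498, minus strand): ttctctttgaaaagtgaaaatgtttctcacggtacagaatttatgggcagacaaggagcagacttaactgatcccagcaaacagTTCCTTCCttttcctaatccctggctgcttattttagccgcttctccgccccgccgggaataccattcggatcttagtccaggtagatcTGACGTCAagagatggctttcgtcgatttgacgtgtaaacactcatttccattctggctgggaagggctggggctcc
The element began at position -79 in VGF, -54 in CHGA and -77 in PCSK1, counted with the start base as 1 and the base before it as -1. All 4 motifs were searched on both strands of the whole 300 bases, 250 before and 50 from the start, with 1 start used per gene. The starts used for VGF and CHGA lie inside the gene positions given below, and other starts were not searched. The exact letters TATAAA lay in VGF alone among the 8 and in 12% of all promoters. Near forms of the TATA box, such as tatataag in the CHGA sequence above, were not searched. The GGAA repeat pair lay in SCG3 and PCSK1 and in 3.58% of all promoters. The AP-1 site TGANTCA lay in PCSK1N, at -246, and in 7.76% of all promoters. No searched motif lay in the promoters of SCG5, PCSK2 and CPE.

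Per length, the 10 genes spanned from highly expressed to barely detected. PCSK2 was highest in the controls with 66.9 ± 7.37 TPM (SD, n = 4), above 89.1% of 19238 protein-coding genes, and CPE followed with 32.9 ± 15.5 TPM (SD, n = 4). SCG2, a precursor of the peptide secretoneurin, was at 12.2 ± 3.20 TPM, PCSK1N at 10.1 ± 3.42 TPM and VGF at 5.01 ± 1.34 TPM (SD, n = 4 each). CHGA, the classic neuroendocrine granin, was at 1.05 ± 0.914 TPM (SD, n = 4). CHGB, SCG5, SCG3 and PCSK1 had control means of 0.0961, 0.0798, 0.0530 and 0.00982 TPM. The control ranges of CPE and SCG2, of SCG2 and PCSK1N, and of PCSK1N and VGF overlapped, as did those of neighbours among the 4 lowest genes. Within every control library, though, CPE lay above SCG2 and PCSK1N above VGF. SCG2 and PCSK1N did not keep 1 order, since PCSK1N was the higher in clone 3 (11.1 against 8.96 TPM). PCSK2 lay above CPE, VGF above CHGA and CHGA above CHGB without overlap. The pair of convertases therefore stood at opposite ends of the order, with PC2 message at the top and PC1/3 message at the bottom, and the chaperone of PC2, SCG5, was among the 4 lowest genes. With doxycycline PCSK2 (56.0 TPM) and CPE (24.1 TPM) were again at the top, PCSK1N (14.0 TPM) stood next to SCG2 (13.3 TPM), and VGF (1.91 TPM) and CHGA (0.379 TPM) came after them.

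With doxycycline, VGF was lower in 4 of 4 pairs of cultures, CPE and PCSK2 fell by smaller amounts, and CHGA, SCG2 and PCSK1N were not called. Of the 10 members, 6 passed the filter on low counts, and 3 of these were called, all lower (edgeR with origin as a block, BH-adjusted p under 0.05). Over all 15991 genes tested, 7.62% were called, 3.9% lower and 3.72% higher. The median log2 fold change of the 6 tested members was -0.36, against 0.00417 over all genes. The same comparison was used to name the members, so its counts, fold changes and p-values are given as a description of these genes and nothing is read from them. The pairing by origin mattered, because without it the edgeR test called 1 gene in all (0.00625%, against 1155 or 7.22% at an unadjusted p under 0.05) and no member, while DESeq2 called VGF, CPE and PCSK2 with the pairing (13.8% of its genes called) and VGF alone without it (1.43%).

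VGF (chromosome 7, 101162509 to 101169952) was at 7.64, 9.70, 7.22 and 5.11 CPM in the control cultures of the polyclonal population and clones 3, 5 and 6. In the doxycycline cultures of the same origins it was at 2.76, 3.92, 2.52 and 2.02 CPM. Clone 3 was highest and clone 6 lowest in both conditions, and all 4 doxycycline values were under the lowest control value, as in 2.3% of genes tested. The mean went from 7.42 ± 1.89 to 2.81 ± 0.807 CPM (SD, n = 4 each), and the log2 ratios of the pairs (with 0.5 CPM added to each value) were -1.32, -1.21, -1.35 and -1.15. VGF fell by 1.41 on the log2 scale (standard error 0.138, edgeR BH-adjusted p = 0.00595), to 0.377 of the control level, and ranked 23 of all genes by p. A change of that size or more was measured in 0.775% of genes tested. Without the pairing the same test gave an adjusted p = 0.193, and over 12 alternatives the adjusted p was from 4.8e-10 to 0.193. VGF remained called when any 1 origin was left out, at adjusted p-values from 0.016 to 0.033 (edgeR). The curated transcript NM_003378.4 took 85.9% of its control reads and 83.1% of its doxycycline reads, and the predicted transcript XM_005250561.5 took 14.2% and 15.0%, so the split between them was similar in both groups. Of the genes compared across all 8 libraries, those whose log2 CPM followed VGF most closely were TPBG (Pearson r = 0.978), RAB12 (0.972) and PIGM (0.971), a description over 8 libraries and 13378 genes that share depth, origins and treatment.

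CHGA (chromosome 14, 92922664 to 92935285), whose promoter carries the same element, was at a low level in every library. It was at 0.481, 0.914, 2.76 and 0.603 CPM in the controls (polyclonal population, clones 3, 5 and 6) and at 0.215, 0.291, 0.598 and 0.547 CPM with doxycycline. These values rest on 15 to 76 reads per control library and 7 to 18 reads per doxycycline library. Clone 5 stood out among the controls, and the clone 6 pair was almost level, so the groups overlapped. The log2 fold change was -1.36 (standard error 0.373, edgeR BH-adjusted p = 0.0674), which did not pass the test. With all genes of at least 1 count kept, it did (adjusted p = 0.0321, edgeR), and without clone 5 the log2 fold change was -0.997 at an adjusted p = 0.307. CHGA, VGF, PCSK2 and CPE were each lower in 4 of 4 pairs, as were 15.9% of genes tested.

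SCG2 (chromosome 2, 223596940 to 223602361) was at 19.6, 12.6, 21.4 and 14.3 CPM in the controls and 22.8, 18.4, 18.9 and 13.6 CPM with doxycycline. It was higher with doxycycline in the polyclonal and clone 3 pairs and lower in the pairs of clones 5 and 6. The log2 fold change was 0.13 (standard error 0.127, edgeR BH-adjusted p = 0.588), and without clone 3 it was -0.009, so its sign rests on that clone. CHGB (chromosome 20, 5911510 to 5925353) had 9, 5, 3 and 1 reads in the controls and 3, 5, 0 and 0 with doxycycline. SCG3 (chromosome 15, 51681503 to 51721026), a granin that binds CHGA to the vesicle membrane, had 0 to 5.06 estimated reads per library. For both, a difference was not detectable at this depth and they were left out of the test.

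**Figure D1:**
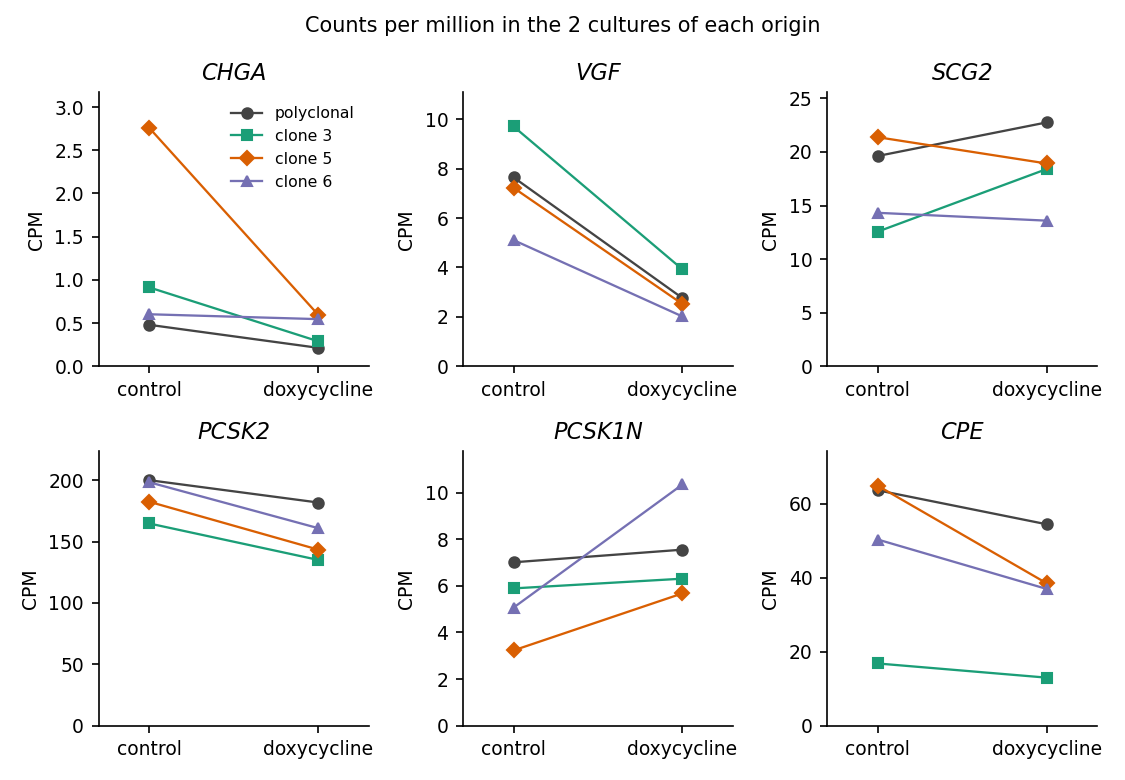
CPM of the 6 tested genes in the control and doxycycline culture of each origin, joined by a line. Each panel starts at 0 and has its own scale. The VGF lines all fall without the groups overlapping, CPE in clone 3 lies far below the other origins in both conditions, and the SCG2 lines cross.

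Of the convertases, PCSK2 (chromosome 20, 17226107 to 17484578) was at 200.1, 165, 182 and 198 CPM in the control cultures of the polyclonal population and clones 3, 5 and 6. With doxycycline it was at 182, 135, 144 and 161 CPM. Each doxycycline culture was lower than its own control, but the polyclonal doxycycline culture lay within the range of the controls, so the groups overlapped. The log2 ratios of the pairs were -0.14, -0.29, -0.35 and -0.30. PCSK2 fell by 0.27 on the log2 scale (standard error 0.0547, edgeR BH-adjusted p = 0.0303), to 0.831 of the control level. Changes of this size are common, since 29.3% of genes tested had one as large. The call rests on the pairing (adjusted p = 0.683 without it) and on the number of origins, since the adjusted p was 0.0765, 0.129 and 0.101 without clones 3, 5 and 6 in turn, and 0.0457 without the polyclonal cultures (edgeR).

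Nearly all PCSK2 reads came from 1 transcript, NM_002594.5, with 98.2% of the reads in the controls and 98.8% with doxycycline. The minor transcript NM_001201529.3 took between 1.41% and 1.85% of PCSK2 reads in the control libraries and between 0.693% and 1.17% in the doxycycline libraries. It was picked after its values were seen, and how many transcripts of all genes separate in this way was not counted. Its level was 2.84 ± 0.357 CPM in the controls and 1.31 ± 0.313 CPM with doxycycline (SD, n = 4 each, from assigned reads without TMM). This difference was not tested, since the error of dividing reads between similar transcripts is not in the files. The other minor transcript, NM_001201528.1, went the other way, with 0.131% of the reads in the controls and 0.304% with doxycycline. The expression of PCSK2 over the 8 libraries was followed most closely by ST8SIA5 (Pearson r = 0.993), ZNF425 (0.988) and SCD (0.973).

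PCSK1 (chromosome 5, 96390333 to 96433248) had 0, 0, 1 and 2 reads in the controls and 0, 1, 1 and 0 with doxycycline, at or under the floor in every library, so no change could be measured. Of the partners of the convertases, PCSK1N was tested and not called, and SCG5 was left out of the test for its low counts. SCG5 (chromosome 15, 32641710 to 32697092) had 7.12 estimated reads in the clone 3 control and 0 in the other controls, and 3.89, 5.97, 0 and 2.54 with doxycycline in the polyclonal population and clones 3, 5 and 6. SCG5 overlaps the read-through gene ARHGAP11A-SCG5 on its own strand and SCG5-AS1 on the other strand, and SCG3, PCSK1, PCSK2 and CPE also have annotated neighbours on the other strand, so a part of these reads may belong to a neighbour.

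PCSK1N (chromosome X, 48831096 to 48835610) was at 7.01, 5.89, 3.23 and 5.07 CPM in the controls. With doxycycline it was at 7.55, 6.31, 5.68 and 10.3 CPM. It was the 1 tested member that was higher in 4 of 4 pairs, as were 17.3% of genes tested, but the polyclonal and clone 3 pairs were almost level (log2 ratios 0.10 and 0.09) and the pairs of clones 5 and 6 were apart (0.73 and 0.96). The log2 fold change was 0.50 (standard error 0.193, edgeR BH-adjusted p = 0.161), and no alternative called it.

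CPE (chromosome 4, 165379008 to 165498547) was at 63.7, 16.8, 64.9 and 50.3 CPM in the control cultures of the polyclonal population and clones 3, 5 and 6. With doxycycline it was at 54.5, 13.0, 38.5 and 37.0 CPM. Clone 3 was far below the other origins in both conditions, and the spread between origins was larger than the change within a pair, so the groups overlapped (48.9 ± 22.4 and 35.7 ± 17.1 CPM, SD, n = 4 each). The log2 ratios of the pairs were -0.22, -0.36, -0.74 and -0.44. CPE fell by 0.45 on the log2 scale (standard error 0.0919, edgeR BH-adjusted p = 0.0303), to 0.732 of the control level. In 13.5% of genes tested the change was at least as large as that of CPE. The adjusted p was 0.981 without the pairing, 0.0592 with curated transcripts only, 0.066, 0.1 and 0.101 without clones 3, 5 and 6 in turn, and 0.0397 without the polyclonal cultures (edgeR). Its closest genes over the 8 libraries were ZNF730 (Pearson r = 0.996), XAGE1A (0.987) and NNT-AS1 (0.975).

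**Figure D2:**
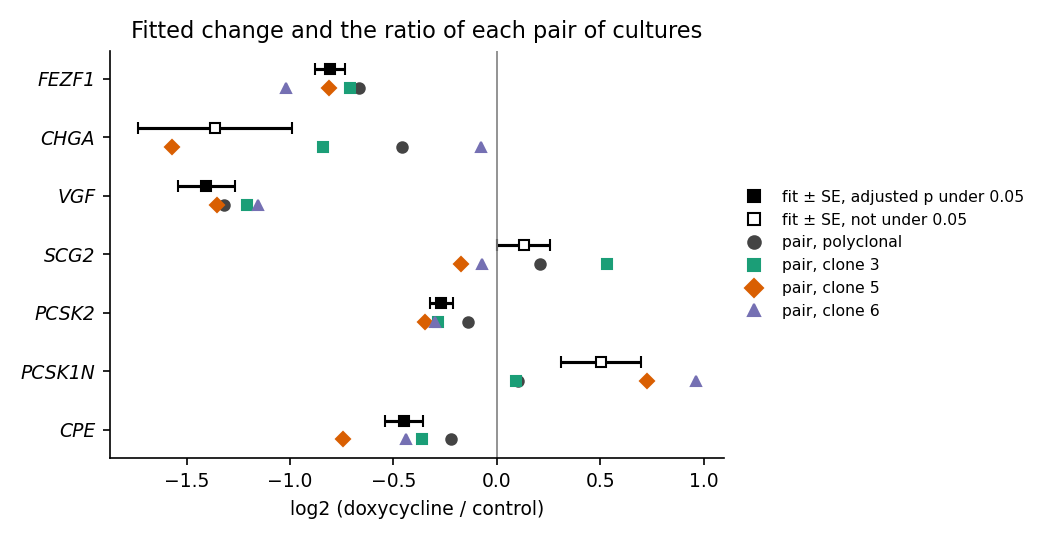
Log2 fold change with doxycycline from the paired edgeR fit (squares, bars are the standard error, filled where the adjusted p was under 0.05) and the log2 ratio of each pair of cultures (symbols, 0.5 CPM added) for FEZF1 and the 6 tested members. The 4 VGF pairs lie between -1.35 and -1.15, while the CHGA, PCSK1N and CPE pairs are spread and the SCG2 pairs lie on both sides of 0.

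The origins themselves differed in these genes, which the choice of members did not use. An F test of origin in the same fit called 4 of the 6 tested members, CPE (adjusted p = 0.000402), PCSK2 (0.0298), VGF (0.0307) and CHGA (0.0432), but not SCG2 (0.0631) or PCSK1N (0.131) (edgeR, BH-adjusted). The same test called 39.4% of all genes tested, so a difference between the clones was common in these cells. CPE had the smallest p of the 6. The mean of its 2 cultures was 59.1, 14.9, 51.7 and 43.7 CPM in the polyclonal population and clones 3, 5 and 6, and its highest control was 3.86 times its lowest, a larger ratio than in 90.1% of genes tested, whose median was 1.48. Without clone 3 the origin test no longer called CPE (adjusted p = 0.0779, edgeR). In the same cultures the summed level of 6 mesenchymal markers (COL1A1, COL1A2, COL3A1, LUM, DCN and POSTN) was highest in clone 3, at 1273 TPM without and 1301 TPM with doxycycline, against 122 and 169 TPM in clone 5, 454 and 516 TPM in the polyclonal population and 494 and 491 TPM in clone 6. Of these 6 genes, 4 were at 1 TPM or more on average in the controls and none was at 0. Most of the sum came from COL1A1, COL1A2 and COL3A1, at control means of 160, 258 and 163 TPM. The summed level of the Ewing sarcoma markers, mostly CD99, was lowest in clone 3. It was 2784 TPM there without and 2855 TPM with doxycycline, against 3725 to 5112 TPM in the other origins. The part of these markers in the CPE difference was not tested.

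CHGA had the widest control range, with the highest control 5.74 times the lowest, a larger ratio than in 94.4% of genes. The origin call of CHGA was lost without the polyclonal cultures (adjusted p = 0.106), without clone 5 (0.415), with the effective length offset (0.0608), with curated transcripts (0.0826) and in the likelihood ratio test of DESeq2 (0.136). That of VGF was lost without clone 3 (0.153) or clone 6 (0.156) and with curated transcripts (0.0753), and that of PCSK2 without the polyclonal cultures (0.0737) or clone 3 (0.108) (edgeR where no tool is named). SCG2 was called for origin without clone 3 (edgeR adjusted p = 0.0319), with a filter at 1 count (0.047) and with at least 10 counts in every library (0.0406). VGF was highest in clone 3, where CPE and PCSK2 were lowest, so the members did not share 1 order of origins. PCSK2 was the most even member, with a ratio of 1.21 between its highest and lowest control, and 17.8% of genes tested had a smaller one.

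Other genes of the secretory pathway and its regulators are read against the 7.62% of all genes called. None of those called was called by edgeR without the pairing. Of 21 other processing enzymes, 19 were tested and 1 was called (5.26%, near the share over all genes), AEBP1, a carboxypeptidase-like protein of the extracellular matrix, which fell by 0.29 on the log2 scale (standard error 0.0702, edgeR adjusted p = 0.0476). The list's median was -0.11. FURIN, the ubiquitous convertase of the constitutive pathway, had a change of -0.11 on the log2 scale (standard error 0.0669, edgeR adjusted p = 0.351). PAM, which amidates the ends of peptides, had a change of -0.21 (standard error 0.0587, edgeR adjusted p = 0.0752, and 0.00934 in DESeq2 with the pairing), from 63.7% of the reads that the authors' mean implies. The adjusted p-values of these lists are from the paired edgeR fit, BH-adjusted over all genes.

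Of 31 genes of dense-core vesicle biogenesis and release, 23 were tested and 1 was called by paired edgeR (4.35%, against 7.62% of all genes). It was RAB3D, a small GTPase of secretory granules, which rose from 36.7 ± 1.35 to 47.8 ± 2.56 CPM (SD, n = 4 each), or by 0.38 on the log2 scale (standard error 0.061, edgeR adjusted p = 0.0162). The list's median was 0.08. PTPRN (IA-2), a membrane protein of the granule, had 8 reads in the polyclonal doxycycline culture and 0 in the other 7 libraries. Of 63 peptide precursors, 21 were tested and 2 were called (9.52%, against 7.62% of all genes), both higher, with a list median near 0. CCK, the precursor of cholecystokinin, was at 13.8, 2.17, 53.8 and 2.61 CPM in the controls of the polyclonal population and clones 3, 5 and 6 and at 23.7, 3.08, 154 and 8.67 CPM with doxycycline, and rose by 1.16 on the log2 scale (standard error 0.184, edgeR adjusted p = 0.0158). As a ratio, its highest and lowest controls were further apart than the 2 cultures of any origin. STC2, a secreted glycoprotein hormone that is not made by convertase cleavage, rose from 28.1 ± 3.54 to 43.4 ± 4.45 CPM (SD, n = 4 each), a change of 0.63 on the log2 scale (standard error 0.0657, edgeR adjusted p = 0.00636).

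Of 21 regulators of neuroendocrine genes, 13 were tested and 3 were called by paired edgeR (23.1%, against 7.62% of all genes). EGR1, an immediate early transcription factor, fell by 0.68 on the log2 scale (standard error 0.0734, edgeR adjusted p = 0.00637). RCOR1, the corepressor that works with REST, rose by 0.25 (standard error 0.0598, edgeR adjusted p = 0.0471), and NKX2-2, a homeobox factor that is also an Ewing sarcoma marker, rose by 0.30 (standard error 0.0684, edgeR adjusted p = 0.0415). REST, which silences neuronal and granin genes outside neurons, had a change of 0.04 on the log2 scale (standard error 0.0944, edgeR adjusted p = 0.844), with 49.3 ± 2.98 and 50.8 ± 6.51 CPM (SD, n = 4 each). INSM1, a zinc finger factor of neuroendocrine lineages, had 0 reads in all libraries, under the floor of 3 reads. Chosen after their values were seen, CRTC1 and BDNF had the largest fold changes among the uncalled genes of these lists. Their log2 fold changes were -2.32 (standard error 1.26, edgeR adjusted p = 0.308) and 1.70 (standard error 0.45, edgeR adjusted p = 0.061). CRTC1 was at 0 CPM in the doxycycline cultures of clones 3 and 5. In the polyclonal and clone 6 pairs it went from 9.44 to 9.40 and from 8.89 to 7.78 CPM. It had 27.6% of the reads that the authors' mean implies. BDNF had as few as 1 read in a control library.

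**Figure D3:**
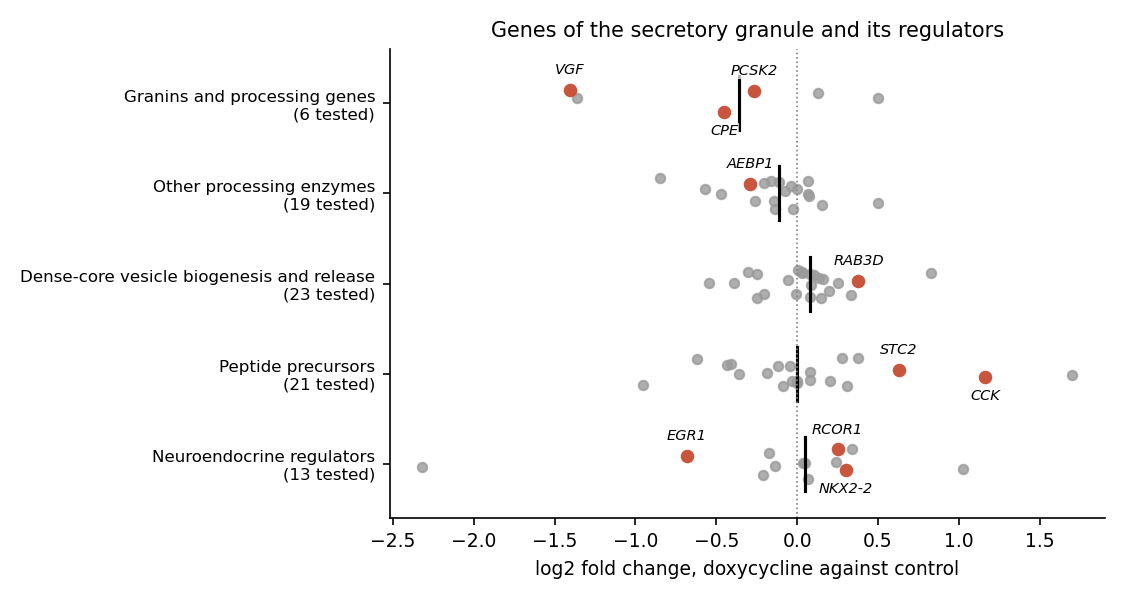
Log2 fold change with doxycycline of each tested gene in the 5 lists (paired edgeR fit). Red points had an adjusted p under 0.05 and are named, grey points did not, and bars mark the median of each list. VGF lies at -1.41, and the red points of the other lists lie on both sides of 0.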

How the data were processed

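RNA of 8 A673/TR/shFEZF1 cultures was analyzed (4 control, 4 doxycycline). The authors prepared libraries with a stranded mRNA kit, quantified paired reads with Salmon on GRCh38 transcripts and deposited estimated counts and TPM for 158867 transcripts in each library. Whether Salmon used strand is not given in the sources used here. They also deposited a DESeq2 table (DESeq2 2.11.40.6 in the submitters' processing notes) with the mean signal of normalized counts per gene, of which only that mean was used, and fold changes and p-values, which were not used. No column of another sample was present (0).

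Transcripts were matched to symbols (115319, or 72.6%, with 89.9% to 91.1% of reads), and estimated counts were summed per gene, rounded, filtered (filterByExpr, minimum 10), scaled by TMM and analyzed by the quasi-likelihood test of edgeR 4.0.16 in R 4.3.3 with origin as a block and Benjamini-Hochberg adjustment over 15991 genes at 0.05. The standard error is the log2 fold change over the root of F. Members' summed reads were 96.2% to 103.9% of what the mean signal deposited by the authors implies. TPM was used for levels only. DESeq2 1.42.0, Python 3.11.15, pandas 2.3.3 and numpy 2.4.6 were used, and the fits were tested on simulated data.

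Control and doxycycline cultures of 1 origin come from the same cells. Their deviations from the group means correlated at 0.406 (polyclonal population), 0.546, 0.59 and 0.582 (clones 3, 5 and 6), against -0.395 to 0.179 between origins. The study's methods name no pairing. Each origin has 1 culture per condition. The p-values of the paired fit therefore measure how the change varied between the pairs of cultures. Noise between cultures and differences in response between origins cannot be told apart. The alternatives were no pairing, DESeq2, its size factors, 2 other count filters, an effective length offset, curated transcripts only and leaving out each origin.

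The members and lists were chosen with earlier results of these data known. Named genes are the 10 members, FEZF1, the called genes of each list, PAM, FURIN, PTPRN, REST and INSM1, and for each called member the 3 genes with the highest Pearson correlation of log2 CPM. Another gene of this rule is not reported here. Of the list genes, those with under 80% of reads matched to the symbol, PAM and CRTC1 among them, are less certain. Promoters are from RefSeq (GRCh38.p14), with 8 of 10 members matched. Gene positions are from RefSeq on GRCh38, and strands and overlapping genes are from GENCODE. Protein features were not analysed here.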

Additional observations from a re-analysis of the deposited data

Results flagged for a closer look

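No group of 4 cultures held a library that stood apart by Dixon's test in the levels of the tested members or FEZF1 or in depth (0 of 16 groups, where chance would give about 0.8).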

How the results depend on the processing

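Counts of calls depended mostly on the pairing. With the replicate block (origin) 1219 genes were called by edgeR and 1879 by DESeq2, and with no replicate block 1 and 210. Curated transcripts gave 493, and leaving out 1 origin 175 to 699. Members called were 3, 0 with no block, 1 in DESeq2 without it, and 1 to 3 with an origin left out. For the origin test, 6298 genes were called, 4053 with curated transcripts and 2964 to 5299 with an origin left out; members called were 4, 2 with curated transcripts and 2 to 3 with an origin left out.

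Without the replicate block the calls of VGF (log2 fold change -1.40), PCSK2 (-0.26), CPE (-0.45) and FEZF1 (-0.80) were lost in edgeR, and in DESeq2 without it those of PCSK2 (-0.28) and CPE (-0.46). CPE was also not called with curated transcripts (-0.46). With an origin left out, log2 fold changes were -1.44 to -1.39 for VGF, -0.32 to -0.26 for PCSK2, -0.53 to -0.36 for CPE and -0.86 to -0.73 for FEZF1. The FEZF1 log2 fold change was larger with curated transcripts (-1.181) and with the effective length offset (-0.921) than in the main fit (-0.805). SCG2 ranged from -0.009 (without clone 3, a reversed sign) to 0.217. The cause of these changes was not tested.

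Calls among 19 other processing enzymes were 1; they were 0 with no block (edgeR and DESeq2) and with curated transcripts, 4 in DESeq2 with the block, 2 with its size factors, 3 with a filter at 1 count, 4 with at least 10 counts in every library and 0 to 2 with an origin left out. Calls among vesicle genes were 1, 0 with no block in edgeR, 1 in DESeq2 without it, 2 with the 10-count filter and 0 to 1 with an origin left out. Calls among peptide precursors were 2, 0 with no block, 1 in DESeq2 without it and 1 to 2 with an origin left out. Calls among regulators were 3, 0 with no block (edgeR and DESeq2), 5 in DESeq2 with the block, 5 with the 10-count filter, 1 with curated transcripts and 1 to 2 with an origin left out.

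Depth limits CHGB, SCG3, SCG5 and PCSK1, whose change was not measurable. The 4 pairs limit the smaller changes, and the block changed no other call of a member.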
